A study of Mus musculus with 4 samples.

Results

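A group of 10 genes that encode receptors for foreign or misplaced nucleic acid, their adaptors and the kinase and deaminase that act on double-stranded RNA was followed in wt and Top2β-null MEF cells. The genes are the helicases Ddx58 (RIG-I), Ifih1 (MDA5) and Dhx58 (LGP2), their adaptor Mavs, the DNA sensor Cgas and its adaptor Tmem173 (STING), the receptors Tlr3 and Zbp1, the kinase Eif2ak2 (PKR) and the deaminase Adar. They were taken by name, with earlier results of these data known, and all 10 were found among the 54842 gene identifiers of the deposited table. MEF cells are fibroblasts grown from mouse embryos. Both groups were untreated and grown in the same medium, and each has 2 libraries of total RNA depleted of ribosomal RNA. The wt cells are the wild-type control, and the Top2β-null cells, which came from Top2β-null mice as a gift from other laboratories, lack DNA topoisomerase 2β, an enzyme that passes one DNA duplex through a cut in another. Because each genotype is a separate cell population with its own origin, loss of Top2β and origin of the cells cannot be told apart in any comparison here. Neither the strain nor whether the 2 libraries of a genotype come from separate cultures is given in the sources used here, so the p-values measure the spread between libraries, which may be technical.

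Cells read RNA or DNA in the wrong compartment as a sign of infection. RIG-I and MDA5 bind viral-type RNA in the cytosol and signal through MAVS on mitochondria, while cGAS binds cytosolic DNA and makes a cyclic dinucleotide that activates STING. Both routes lead to the kinase TBK1, to interferon regulatory factors and to type I interferon, and most of these sensors are themselves induced by interferon. TLR3 detects double-stranded RNA in endosomes, ZBP1 binds Z-form nucleic acid and can start necroptosis, PKR shuts down translation, and ADAR edits adenosine to inosine in double-stranded RNA, which keeps the cell's own RNA from being detected.

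The deposited counts summed to between 133116830 and 149647278 per library over genes and repeat families. Top2b, the targeted gene, was at 20.9% of its wt level in the Top2β-null libraries. Of 10 fibroblast markers, 8 were abundant enough to be tested and their summed level was 872017 and 887927 normalized counts in wt and 547608 and 552816 in Top2β-null MEF cells. By the cut-offs of the next paragraph, 4 of the 8 were higher (Pdgfra, Pdgfrb, Thy1 and Dcn) and 2 lower (Col1a1 and Col3a1) in Top2β-null MEF cells, beside 5.52% and 5.25% of all genes. Col1a1, Col1a2, Col3a1 and Vim were abundant in all 4 libraries, whereas Fap had at most 2 and Lum at most 4 raw counts in any library of either genotype. Normalized counts are counts scaled to a common effective library size by edgeR's TMM method. In bulk RNA, fewer cells that express a gene and less of its RNA per cell cannot be told apart.

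Of the 10 genes, 9 were higher in the Top2β-null than in the wt libraries and Mavs was lower, and for each of the 10 the libraries of the 2 genotypes did not overlap. The log2 fold changes, Top2β-null over wt, ran from -0.18 for Mavs to 5.30 for Ifih1. All 10 passed edgeR's quasi-likelihood test at an adjusted p below 0.05, but so did much of the transcriptome, since 32.8% of the 25085 genes tested passed it as higher and 33.7% as lower, and 40.4% and 41.5% had libraries that did not overlap in these directions. A gene is named here as called when, by the cut-offs of the study's methods, its adjusted p was below 0.05, its absolute log2 fold change above 1 and its mean normalized count above 100. Called higher were 5 of the 10 (Ddx58, Ifih1, Cgas, Tmem173 and Tlr3), beside 5.52% of all genes tested. By edgeR 0 were called lower, beside 5.25% of all genes, with 1 (Mavs) lower at an unadjusted p below 0.05, and DESeq2 also called 5 higher and 0 lower. The median log2 fold change was 1.09 over the 10 genes and -0.0058 over all genes tested. Among them, 8 had at least 10 counts in every library, with a median of 0.97, and the other 2, Ifih1 and Zbp1, reached 10 counts in only 1 wt library and passed the filter on low counts through the Top2β-null libraries.

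**Figure D1:**
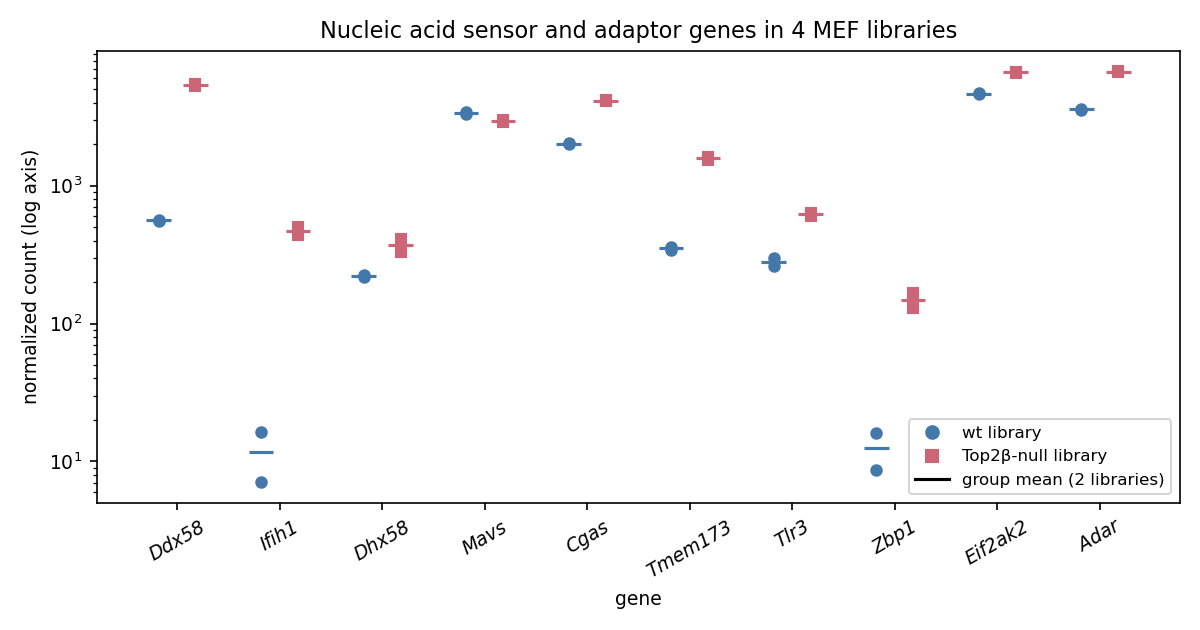
Normalized counts (log axis) of each of the 10 genes in the 2 wt libraries (circles) and the 2 Top2β-null libraries (squares), with a line at each group mean. Both Top2β-null libraries lie above both wt libraries for every gene except Mavs, where they lie below, and Ifih1 and Zbp1 sit near the bottom of the axis in wt MEF cells.

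Promoters were searched for motifs. RefSeq windows on GRCm38.p6, from 250 bases before to 50 bases after a transcription start, were available for 7 of the 10 genes (9 windows, 3 of them of Adar). The interferon-stimulated response element, which binds the factors activated by type I interferon, was searched on both strands as GAAA, any 2 bases and GAAA again, and it was found in the windows of Ddx58, Ifih1 and Eif2ak2 and in 3.44% of all 32851 windows. The 3 matches lie just past the annotated start, and they are shown because this motif was found in more of the 7 genes than the other motif searched. Capitals mark the match, the rest is flanking sequence, and each line reads 5′ to 3′ on the strand of the gene.
Ddx58: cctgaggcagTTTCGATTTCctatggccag
Ifih1: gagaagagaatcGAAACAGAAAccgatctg
Eif2ak2: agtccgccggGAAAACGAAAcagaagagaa
The first stretch is chr4:40239804-40239833 on the reverse strand, with the match at positions 3 to 12 counted from the start base, and there the motif is read on the opposite strand. The second is chr2:62646206-62646235 on the reverse strand, with the match at positions 33 to 42. The third is chr17:78882535-78882564 on the reverse strand, with the match at positions 19 to 28. The gamma-activated site, searched as TTCNNNGAA, reads the same on both strands and can share bases with the first motif. It was found in 8.30% of all windows, once in the window of Eif2ak2, at positions -178 to -170, and once in 1 of the 3 windows of Adar, at positions 23 to 31. The Adar match is printed because it is the only match of either motif in that gene's windows, and it lies within chr3:89730730-89730759 on the forward strand.
Adar: gggaagccttTTCAAGGAAacgaaagtgaa
The windows of Mavs, Cgas and Tlr3 held no exact match to these letters. A match is only a run of letters and no measure of binding, and its part in any change was not tested.

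Ddx58 (chromosome 4, 40203773 to 40239828 on GRCm38, reverse strand) encodes RIG-I, which recognizes short double-stranded RNA with a triphosphate end. Normalized counts were 553 and 566 for wt and 5437 and 5263 for Top2β-null MEF cells. The replicates of each genotype lay close together and the genotypes lay far apart. Ddx58 rose 9.56-fold, or by 3.26 on the log2 scale (standard error, SE, 0.046, edgeR adjusted p = 4.7e-18), and it was called in each of the 13 alternatives.

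Ifih1 (chromosome 2, 62595798 to 62646255, reverse strand) encodes MDA5, which recognizes long double-stranded RNA. Its raw counts in wt MEF cells were 7 and 17, with exact Poisson 95% intervals of 2.81 to 14.4 and 9.90 to 27.2 that cover counting error alone, and those in Top2β-null MEF cells were 426 and 506. On the normalized scale this is 7.07 and 16.4 against 441 and 501. The gene was thus barely detected in wt MEF cells and readily in both Top2β-null libraries. Its log2 fold change was 5.30 (SE 0.21, edgeR adjusted p = 1.4e-12), or 39.4-fold, and it ranked 604 from the highest among the 25085 genes. The size rests on few wt counts, as it was 4.82 without wt replicate 1 and 6.02 without wt replicate 2, and under a filter of 100 counts in every library the gene drops out.

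Dhx58 (chromosome 11, 100694884 to 100704271, reverse strand) encodes LGP2, a helicase of the same family without the signalling domain, which modulates the other two. It had 226 and 216 normalized counts in wt and 411 and 330 in Top2β-null MEF cells. The Top2β-null libraries differed more from each other than those of wt, yet both lay above them. Its log2 fold change of 0.74 (SE 0.12, edgeR adjusted p = 3.1e-05) did not reach the cut-off of 1. Of the 3 helicases it was the one that changed least.

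Mavs (chromosome 2, 131234063 to 131248025, forward strand) encodes the adaptor that both signalling helicases need. In normalized counts it stood at 3288 and 3436 (wt) and at 3022 and 2918 (Top2β-null). The groups did not overlap, but the shift was small, with a log2 fold change of -0.18 (SE 0.040, edgeR adjusted p = 9.3e-04). Scaling to Hprt turned it to 0.19, below the median of 0.36 that all genes had under this scaling. Within each library, which needs no scaling, the log2 ratio of Ddx58 to Mavs counts went from -2.59 ± 0.021 in wt to 0.85 ± 0.0026 in Top2β-null MEF cells (SD, n = 2 each) in counts not divided by length. Per kb of exon, Ddx58 stayed below Mavs in both genotypes. The log2 ratio of Ifih1 to Ddx58 went from -5.70 ± 0.84 to -3.51 ± 0.16 and that of Dhx58 to Ddx58 went from -1.34 ± 0.068 to -3.86 ± 0.19 (SD, n = 2 each).

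Cgas (chromosome 9, 78430526 to 78443237, reverse strand) encodes the synthase that detects double-stranded DNA. It had 1998 and 2048 normalized counts in wt and 4164 and 4095 in Top2β-null MEF cells. Both libraries of each genotype were within a narrow range, and the fitted change was 2.04-fold. The log2 fold change of 1.03 (SE 0.039, edgeR adjusted p = 9.2e-13) lies at the edge of the cut-off, and without wt replicate 1 it was 0.997 and the call was lost. An annotated pseudogene on the opposite strand, Gm8093, shares 201 bases of exon with Cgas and had 73 and 56 raw counts in wt and 126 and 141 in Top2β-null MEF cells, which is small beside Cgas.

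Tmem173 (chromosome 18, 35733679 to 35740554, reverse strand) encodes STING, the membrane receptor for the product of cGAS. It rose from 360 and 343 normalized counts in wt to 1524 and 1629 in Top2β-null MEF cells. The fitted change was 4.49-fold, with a log2 fold change of 2.17 (SE 0.065, edgeR adjusted p = 5.3e-14). The log2 ratio of Cgas to Tmem173 counts within a library went from 2.53 ± 0.075 in wt to 1.39 ± 0.085 in Top2β-null MEF cells (SD, n = 2 each), and the difference of -1.14 stands against a pooled SD of 0.080. An exact permutation test over 2 libraries against 2 cannot give a p below 0.33, so none is given for the ratios.

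Tlr3 (chromosome 8, 45395665 to 45411080, reverse strand), the endosomal receptor for double-stranded RNA, had 261 and 300.4 normalized counts in wt and 632 and 608 in Top2β-null MEF cells. The Top2β-null libraries lay at about the same height and above both wt libraries. Its log2 fold change was 1.14 (SE 0.085, edgeR adjusted p = 6.0e-09). Zbp1 (chromosome 2, 173206612 to 173218923, reverse strand), the sensor of Z-form nucleic acid, had 16 and 9 raw counts (wt) and 160 and 131 (Top2β-null). On the normalized scale these are 16.1 and 8.69 against 166 and 130. The log2 fold change was 3.57 (SE 0.28, edgeR adjusted p = 1.3e-08), the largest after Ifih1 among the 10 genes. It was not called because its mean over the 4 libraries, 80.1 normalized counts, lies below the cut-off of 100. With either wt library left out this mean passed 100 and Zbp1 was called, with log2 fold changes of 4.05 without wt replicate 1 and 3.17 without wt replicate 2.

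Eif2ak2 (chromosome 17, 78852564 to 78882573, reverse strand) encodes PKR, which phosphorylates the initiation factor eIF2α when it binds double-stranded RNA. It was already abundant in wt MEF cells, with 4680 and 4614 normalized counts, and had 6706 and 6616 in Top2β-null MEF cells. The genotypes were clearly separate while the size was modest, with a log2 fold change of 0.52 (SE 0.029, edgeR adjusted p = 1.2e-10). Adar (chromosome 3, 89715022 to 89753446, forward strand) had 3572 and 3618 normalized counts in wt and 6766 and 6665 in Top2β-null MEF cells. Its log2 fold change was 0.90 (SE 0.030, edgeR adjusted p = 1.7e-13), just under the cut-off, and the log2 ratio of Adar to Eif2ak2 counts went from -0.37 ± 0.028 to 0.012 ± 0.0016 (SD, n = 2 each). The counts do not separate the short constitutive form of ADAR from the long form that starts at an interferon-inducible promoter. Exons of Chrnb2 on the opposite strand share 1365 bases with Adar, and Chrnb2 moved with it, from 617 and 625 to 1111 and 1175 raw counts. The library kit keeps strand, but the strand setting of the counting is not given in the sources used here, so the part of this overlap in either value was not tested.

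**Figure D2:**
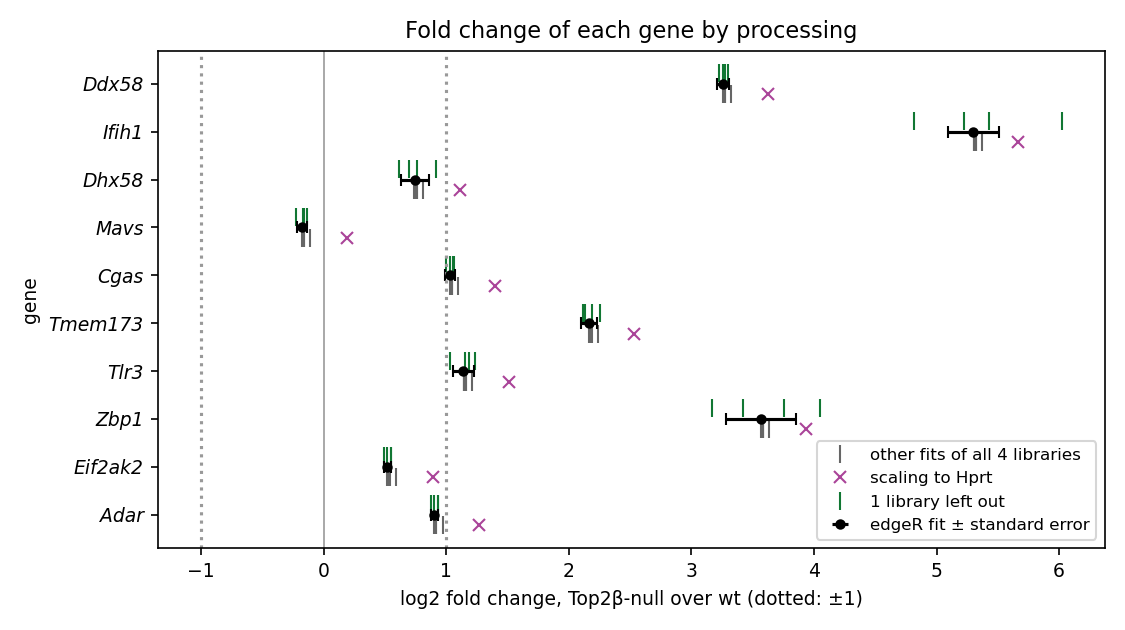
Log2 fold change (Top2β-null over wt) of each of the 10 genes from the edgeR fit of all 4 libraries (black point with its standard error), from the other fits of all 4 libraries (grey), from scaling to Hprt (cross) and with 1 library left out (green). Only scaling to Hprt moves Mavs across 0, and leaving out 1 library moves Ifih1 and Zbp1 most.

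Levels of different genes were compared as normalized counts per kb of merged exons. In wt MEF cells, Mavs had the highest level, 1005 ± 31.2 per kb (SD, n = 2), followed by Eif2ak2 with 909 ± 9.14, Cgas with 490 ± 8.44 and Adar with 443 ± 4.03. The other genes lay well under these, with Tmem173 at 128 ± 4.50, Ddx58 at 79.4 ± 1.3, Dhx58 at 67.6 ± 2.10, Tlr3 at 53.9 ± 5.29, Zbp1 at 3.52 ± 1.49 and Ifih1 at 1.44 ± 0.81. No neighbours in this order had overlapping libraries. For Zbp1 and Ifih1, the lowest, this rests on 16 and 9 against 7 and 17 raw counts, so their order is uncertain. Thus, the wt cells held the DNA sensor, the adaptor of the RNA helicases and the double-stranded RNA enzymes at a substantial level, and the RNA helicases at a low one.

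In Top2β-null MEF cells, Eif2ak2 was highest with 1303 ± 12.4 normalized counts per kb (SD, n = 2), ahead of Cgas with 1001 ± 11.8, Mavs with 888 ± 22.05, Adar with 827 ± 8.84, Ddx58 with 759 ± 17.5 and Tmem173 with 575 ± 27.0. Ddx58 and Tmem173 had come close to the abundant genes. Tlr3 with 119 ± 3.21 and Dhx58 with 113 ± 17.6 had overlapping libraries and thus no order, and Ifih1 with 57.7 ± 5.19 and Zbp1 with 41.9 ± 7.21 stayed lowest. The summed level of the 10 genes per kb was 3157 and 3205 in wt and 5733 and 5636.5 in Top2β-null MEF cells. Of this sum, the share of Ddx58 went from 2.49% to 13.3% and that of Tmem173 from 4.03% to 10.1%, while the share of Mavs went from 31.6% to 15.6%. Among all genes tested, Ddx58 stood at percentile 32.4 by level per kb in wt and at percentile 72.1 in Top2β-null MEF cells, and Ifih1 at 3.35 and 26.6.

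**Figure D3:**
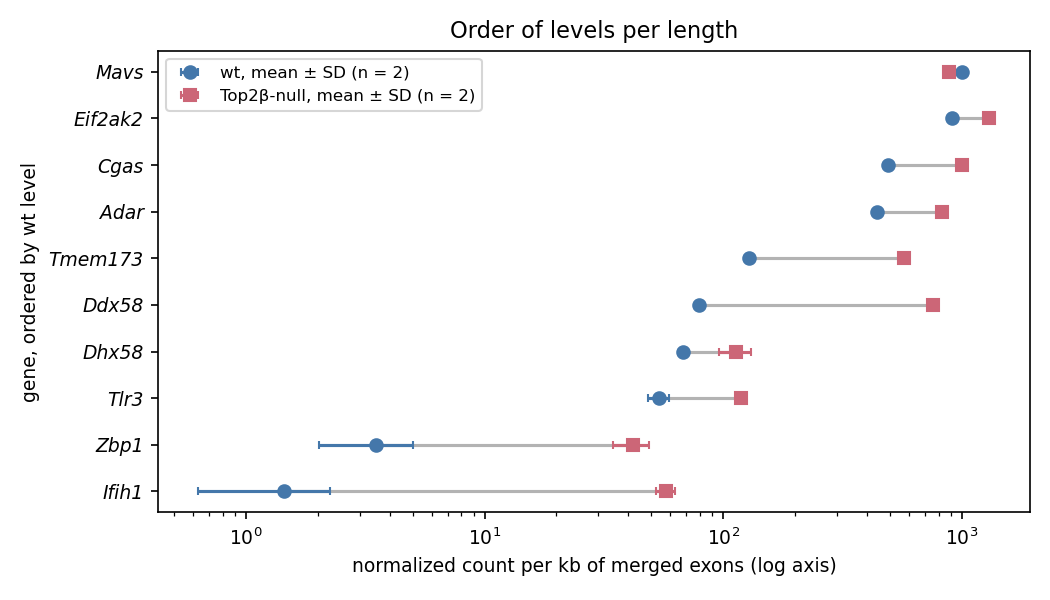
Normalized counts per kb of merged exons (log axis) of the 10 genes in wt (circles) and Top2β-null (squares) MEF cells, as mean ± SD of 2 libraries, ordered by the wt level. Ddx58, Ifih1, Zbp1 and Tmem173 have the longest connecting lines, and Mavs is the gene whose Top2β-null level lies to the left of its wt level.

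The other genes of these pathways were counted in lists. In each list the counts at an unadjusted p below 0.05 equal those by adjusted p, and DESeq2 called as many in each direction as edgeR. Among 14 cofactors and regulators of the RIG-I-like receptors, 13 were tested, 1 was called higher and 0 lower, beside 5.52% and 5.25% of all genes, with a median log2 fold change of 0.015. The called gene was Trim25, a ubiquitin ligase that acts in RIG-I signalling. Its raw counts were 14 and 11 in wt and 7887 and 8242 in Top2β-null MEF cells, and its log2 fold change was 9.36 (SE 0.076, edgeR adjusted p = 8.9e-21). Under the filter of 100 counts in every library Trim25 drops out. By adjusted p alone, 5 genes of the list were higher and 5 lower, beside 32.8% and 33.7% of all genes. Ddx60, a helicase related to antiviral RNA sensing that is named here after its values were seen, had 2 and 1 raw counts in wt and 156 and 155 in Top2β-null MEF cells, and was not called because its mean lay below 100 normalized counts. It is among the 5 higher and passed the filter on low counts only through the Top2β-null libraries.

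The 15 kinases, adaptors and transcription factors downstream of MAVS, STING and TRIF were all tested. Called were 1 higher and 0 lower, beside 5.52% and 5.25% of all genes. The median log2 fold change of the list was -0.13. By adjusted p alone 4 of its genes were higher and 8 lower, beside 32.8% and 33.7% of all genes. The called gene was Irf7, the interferon regulatory factor that interferon itself induces, with 203 and 211 normalized counts in wt and 585 and 689 in Top2β-null MEF cells (log2 fold change 1.62, SE 0.098, edgeR adjusted p = 3.8e-10). In calls the list thus lay near the background of 5.52% higher and 5.25% lower, and no gene of it other than Irf7 reached the cut-offs. By adjusted p alone, more of its genes were lower than higher.

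In the list of 19 genes of DNA sensing and of removal of self nucleic acid, 4 were called higher and 3 lower, with a median log2 fold change of -0.21. By adjusted p alone the balance was the other way, with 7 higher and 10 lower, beside 32.8% and 33.7% of all genes. Among those higher, Aim2, an inflammasome sensor of DNA, went from 6 and 3 to 334 and 377 raw counts (log2 fold change 6.30, SE 0.24), Ifi203 from 104 and 103 to 1582 and 1613 normalized counts (3.94, 0.077) and Mndal from 69.6 and 69.5 to 446 and 441 (2.67, 0.12). Aim2 had fewer than 10 counts in both wt libraries and passed the filter on low counts only through the Top2β-null libraries. Its log2 fold change was 6.88 without wt replicate 1 and 5.85 without wt replicate 2, and it was not tested with either Top2β-null library left out or under the filter of 100 counts. All 4 genes called higher, Aim2, Ifi203, Mndal and Ifi204, belong to the interferon-inducible p200 family on mouse chromosome 1. Its related copies may share reads, so that the single values are uncertain. Those lower were Zcchc3, a cofactor of cGAS and of the RIG-I-like receptors (426 and 415 to 81.8 and 86.2 normalized counts, log2 fold change -2.32, SE 0.12), Dnase2a, the lysosomal DNase (4547 and 4681 to 1179 and 1120, -2.00, 0.044), and Rnaseh2a, the catalytic subunit of RNase H2 (10284 and 10323 to 4888 and 5014, -1.06, 0.027). These 7 called genes stand beside 5.52% of all genes called higher and 5.25% called lower. The call of Rnaseh2a was lost with scaling to the total count (-0.99), with scaling to Hprt (-0.69) and without Top2β-null replicate 1 (-0.9997). Mndal and Zcchc3, like Aim2, drop out under the filter of 100 counts.

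Of 10 endosomal Toll-like receptors and partners, 8 were tested and 0 were called in either direction, with 4 higher and 4 lower by adjusted p alone, beside the same 32.8% and 33.7%, and a median of -0.062. Of these, Unc93b1 passed the filter on low counts only through the Top2β-null and Tlr9 only through the wt libraries, where each was high. Of 17 effectors and relatives of Zbp1, Eif2ak2 and Adar, 16 were tested, 0 were called higher and 3 lower, beside 5.52% and 5.25% of all genes, with a median log2 fold change of -0.39. Ripk3, the kinase through which ZBP1 starts necroptosis, fell from 1083 and 1135 normalized counts in wt to 10.4 and 18.8 in Top2β-null MEF cells (log2 fold change -6.23, SE 0.14, edgeR adjusted p = 1.1e-15). It went the opposite way to Zbp1, and it drops out under the filter of 100 counts in every library. Adarb1, the second RNA editing deaminase, went from 2344 and 2459 to 846 and 782 normalized counts (-1.56, 0.055), also opposite to Adar, and Ddit3, a stress factor downstream of eIF2α phosphorylation, from 2692 and 2740 to 1300 and 1234 (-1.10, 0.047). The call of Ddit3 was lost with scaling to Hprt (-0.73). By adjusted p alone, 3 genes of this list were higher and 12 lower, beside 32.8% and 33.7% of all genes.

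**Figure D4:**
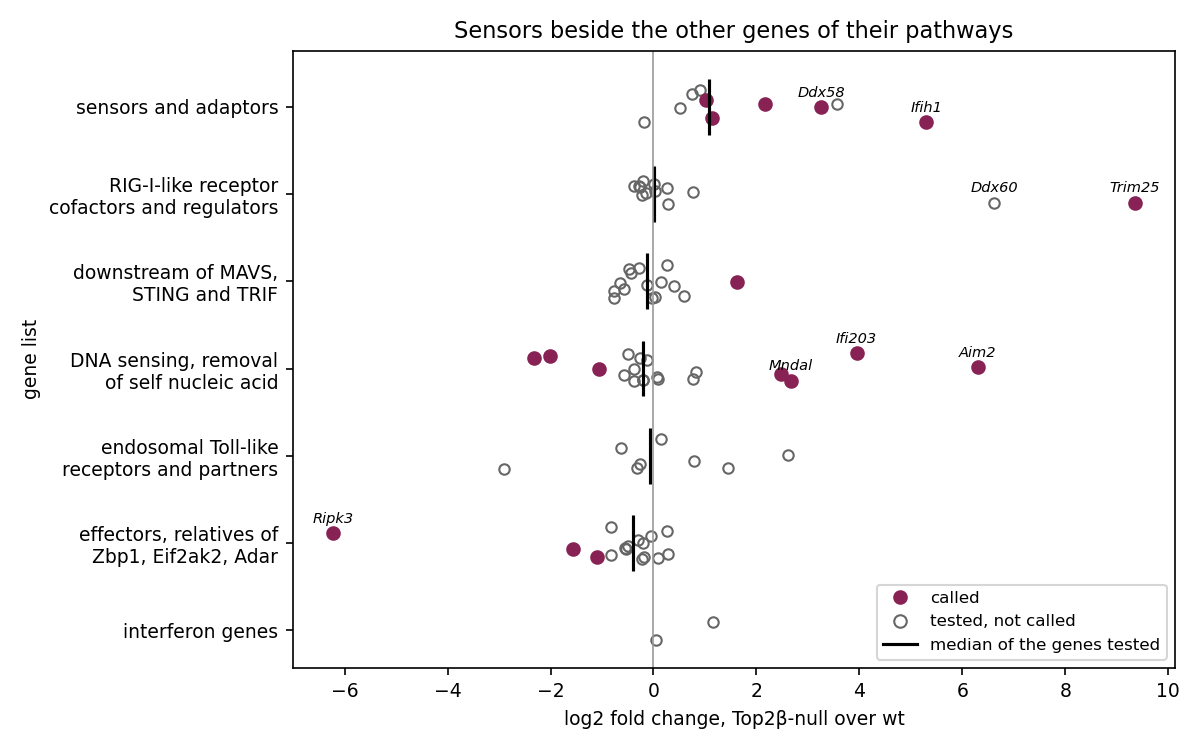
Log2 fold change (Top2β-null over wt) of the tested genes of each list, with called genes filled, others open, and a line at the median of each list but the last. The sensors and adaptors have a median of 1.09, the next 5 lists have medians between -0.39 and 0.015, no median is drawn for the 2 tested interferon genes, and Trim25, the uncalled Ddx60, Aim2 and Ripk3 lie far from the rest of their lists.

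The interferon genes themselves had few counts. Of 14 genes, 6 had no count in any library and only Ifne and Ifnk had enough counts to be tested, with adjusted p of 0.075 and 0.94 (edgeR). Ifne, with 5 and 4 raw counts in wt and 10 in each Top2β-null library, passed the filter on low counts only through the Top2β-null libraries. Ifnb1, the interferon gene that fibroblasts make first, had 1 and 3 raw counts (wt) and 2 and 1 (Top2β-null). The highest count among the untested genes was 23, of Ifna13 in 1 Top2β-null library, where the other 3 libraries had 7 or 8. A count of 0 allows up to 3 counts per library, so a difference below this was not detectable at this depth. Among the 14 leukocyte markers, 6 were tested, 0 were called higher and 1, Cd68, lower, but by adjusted p alone 4 were higher (Itgam, Itgax, Fcer1g and Csf1r), of which Itgam and Itgax passed the filter on low counts only through the Top2β-null libraries. The summed level of all 6 was 2510 and 2567 normalized counts in wt and 1417 and 1437 in Top2β-null MEF cells, and without Cd68 it was 869 and 879 in wt and 1114 and 1148 in Top2β-null MEF cells. Tyrobp and Adgre1 were at 0 in every library and Ptprc had at most 7 raw counts, while Itgam went from 1 and 1 to 27 and 29 and Itgax from 0 and 0 to 11 and 18 raw counts. Of the 5 epithelial markers 2 were tested and 0 called, although both (Cdh1 and Krt8) were lower by adjusted p and passed the filter only through the wt libraries, and their sum was at most 68.6 normalized counts in any library. Of the 5 endothelial markers, all tested, Kdr was called higher and 0 lower. By adjusted p alone 2 were higher and 1 lower, Tek, which passed the filter only through the wt libraries with 43 and 36 raw counts against 9 and 4. The median of the 5 was -0.16, and the sum was 239 and 212 in wt and 367 and 368 in Top2β-null MEF cells. Over all genes, 5.52% were called higher and 5.25% lower, and 32.8% and 33.7% by adjusted p alone. The part of these markers in the values of the sensors was not tested.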

How the data were processed

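Per the study's methods, the authors trimmed the reads (Trim Galore!), mapped them to mm10 (STAR) and assigned them to Gencode genes and repeat families (TEtranscripts). The deposited values are raw counts, and the columns of all 4 libraries were used. Features that reached 10 counts in 2 or more libraries (26566) were fitted in 1 model with edgeR 4.0.16 under R 4.3.3 (TMM factors, quasi-likelihood test, genotype as the only term), with Benjamini-Hochberg adjustment across these features. The fit was first tested on simulated data. Symbols, positions and exon lengths come from GENCODE M21 (GRCm38), which is not the release the authors used, and 54495 of the 54842 gene identifiers matched it. Ddit3 matched more than 1 identifier and was taken by its RefSeq span. Same-genotype libraries differed beyond counting error, with a chi-square of 3.65 (wt) and 5.07 (Top2β-null) for each degree of freedom. The 10 genes, the lists and the tests were chosen with earlier results of these data known, and the log2 ratios between genes after the data were seen. By the rule for named genes, values are given for the 10 genes, Top2b and, from each pathway list, at most 3 called genes in each direction. Ddx60, Ifi204, Unc93b1, Tlr9, interferon genes, single marker genes and genes that overlap the 10 were named beside this rule, after their values were seen. Fibroblast, leukocyte, epithelial and endothelial markers served as a check of the cells. The planned comparison of protein sequences was not run. Alternatives were DESeq2 1.42.0, other scalings and filters, a replicate block, adjusted p alone and leaving out each library.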

Additional observations from a re-analysis of the deposited data

How the results depend on the processing

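When genes were called by adjusted p alone, 9 of the 10 genes were called higher and 1 lower, and 8218 of all genes higher and 8445 lower. Scaling to Hprt, itself lower in Top2β-null MEF cells, gave 2272 genes higher and 764 lower, called 7 of the 10 genes higher and turned Mavs to 0.19. A filter of 100 counts in every library gave 816 higher and 924 lower over fewer genes tested, and called 4 of the 10 genes higher. In the report these numbers were 1385 and 1317, with 5 of the 10 genes called higher. The median log2 fold change of the 10 genes, 1.09, was 1.15 after scaling to the total count, 1.45 after scaling to Hprt, 1.10 when TMM used genes alone, 1.10 with no filter on low counts and 0.97 with the filter of 100 counts, which leaves 8 genes. Leaving out each library gave medians from 1.01 to 1.13. A group with 1 library left is then assumed to vary like the other. With the replicate number as a replicate block the median was 1.09, 5 of the 10 genes were called higher, and 1386 genes were higher and 1318 lower. The correlation between deviations of libraries with the same number was 0.020 over 17952 features, so that nothing shows that the numbers pair the libraries. Over the alternatives with all libraries, 80 log2 fold changes of the 10 genes kept their direction and stayed called or not called. A further 7 were called only under the alternative, and 1, Mavs with Hprt scaling, reversed. The 7 were Dhx58 and Adar with Hprt scaling, and Dhx58, Mavs, Zbp1, Eif2ak2 and Adar by adjusted p alone. That last alternative keeps the main fit and drops the other cut-offs. With a library left out, 37 were kept, 2 were called only then and 0 reversed, and 1 call, of Cgas, was lost. Ifih1 and Zbp1, with under 20 raw wt counts per library, are the least precise of the 10.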
